A study of Sus scrofa with 30 samples.

Results

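Annexins and S100 proteins are calcium-regulated proteins that work at the inner face of cell membranes, and the transcripts of 10 of them were followed in single pig embryos at the onset of conceptus elongation. The members were listed by symbol and looked up by NCBI gene identifier in the table of all embryos, where all 10 were found among 13103 genes. There were 7 annexins, ANXA1, ANXA2, ANXA3, ANXA4, ANXA5, ANXA7 and ANXA8, and 3 S100 proteins, S100A6, S100A10 and S100A11. The RNA came from 30 whole embryos, 5 female and 5 male on each of Days 8, 10 and 12 after insemination, with no other treatment between the groups. Embryos were flushed from the uteri of crossbred gilts, 4 gilts per day, that had all been inseminated with sperm of the same boar. No gilt gave embryos of more than one day and embryos are not linked to their gilts in the labels, so day and gilt cannot be told apart and the p-values measure the spread between embryos, some of which were littermates. Levels are counts per library scaled to a common size (CPM) after correction by TMM factors, and a member was called between days at an FDR (adjusted p) under 0.001 with a log2 fold change beyond 1.

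Annexins share a core that binds acidic phospholipids when calcium is present, and they join, shape and seal membranes and link them to the actin skeleton. S100 proteins are small calcium-binding proteins of the EF-hand type that work mostly as dimers, and several of them dock onto the free end of an annexin. The best known pair is ANXA2 with S100A10 (p11), a complex that carries ion channels to the plasma membrane and binds the plasminogen system at the cell surface. S100A11 is the usual partner of ANXA1. Pig conceptuses elongate rapidly around Day 12, before they attach to the uterus.

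The counts per embryo ran from 6068212 to 34002508. The smallest library, that of the Day 12 female d12_f_245, also lay farthest from the other embryos of its day, at a mean distance of 139 in log2 CPM over all genes against 86.6 to 120 for the others of Day 12. Trophectoderm markers were detected on every day for 6 of 6 listed genes, with median summed CPM of 23664, 42265 and 13108 on Days 8, 10 and 12. That sum is mostly KRT8 and KRT18, and other markers took another course, since GATA3 was at 138, 121 and 285 CPM and was called higher on Day 12 than on Day 10. Epiblast markers (NANOG, POU5F1 and SOX2) had a median sum of 35.8 CPM on Day 8, 16.6 CPM on Day 10 and 1.56 CPM on Day 12. Of 4 hypoblast markers the median sum was 208, 105 and 164 CPM. The 3 measured primitive streak and mesoderm markers took different courses. HAND1 had means of 0.0624, 77.1 and 1065 CPM. T had means of 0.0915, 1.38 and 0.0472 CPM and EOMES of 2.38, 2.64 and 0.0316 CPM. Both T and EOMES were called lower on Day 12 than on Day 10. Of 6 uterine epithelium markers 4 were in the table (not PAEP and PGR), all 4 had higher means on each later day, 3 were called higher on Day 12 than on Day 8, and their median sum was 0.833, 3.49 and 17.1 CPM. Of 4 red blood cell markers HBB and ALAS2 were in the table, with a median sum of 0.684, 2.81 and 4.11 CPM. In RNA of whole embryos, fewer cells of a type and less RNA per cell cannot be told apart, and the part of these marker changes in the results below was not tested.

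The members followed different courses over the days. ANXA1, ANXA2, ANXA8, S100A6 and S100A10 rose between Days 8 and 10 and rose again between Days 10 and 12. ANXA5 rose to Day 10 and fell back by Day 12, and S100A11 rose to Day 10 with no call after that. ANXA4 and ANXA7 passed both criteria only over the whole interval from Day 8 to Day 12, and ANXA3, with low counts, was called only from Day 10 to Day 12.

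**Figure D1:**
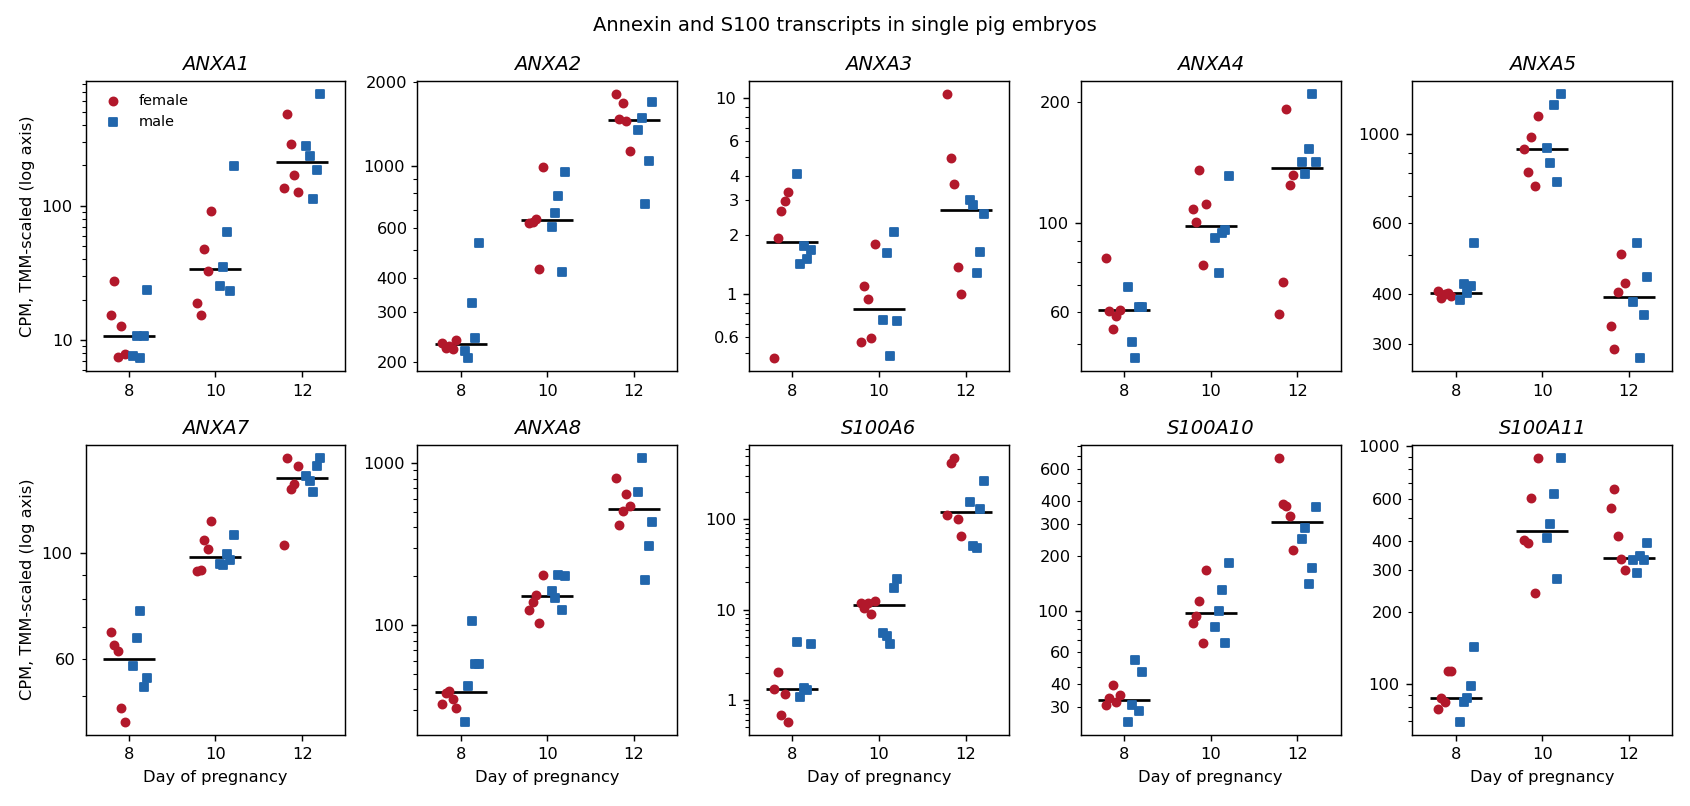
CPM (TMM-scaled, log axis) of each member in every embryo by day of pregnancy, with circles for female and squares for male embryos and a line at the median of the 10 embryos of a day. ANXA5 peaked on Day 10 with a median of 920 CPM, while S100A6 went from a median of 1.30 CPM on Day 8 to 121 CPM on Day 12.

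ANXA2, the membrane-to-actin linker that binds S100A10, lies at chr1:111588721-111635064 of Sscrofa11.1 (gene 406192). Day 8 embryos lay between 206 and 533 CPM (median 231), Day 10 embryos between 420 and 994 CPM (median 640) and Day 12 embryos between 736 and 1811 CPM (median 1469). All 10 embryos of Day 12 lay above all embryos of Day 8, while the male d08_m_136 of Day 8 reached into the range of Day 10. The rise to Day 10 was 1.34 ± 0.18 (SE) on the log2 scale with an adjusted p of 2.58e-07, and that from Day 10 to Day 12 was 1.04 ± 0.18 with an adjusted p of 9.27e-06. The second rise sits at the fold threshold, and it was no longer called when one of the embryos d10_f_433, d10_m_435, d12_f_245 or d12_m_307 was left out, with log2 fold changes down to 0.98.

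ANXA1 (chr1:226414200-226431963, gene 396942), known as lipocortin and as a mediator that dampens inflammation, was at 7.37 to 27.4 CPM on Day 8 with a median of 10.8. Its level was between 15.4 and 197 CPM on Day 10 (median 33.6) and between 112 and 676 CPM on Day 12 (median 210). It rose by 2.07 ± 0.42 and then by 2.28 ± 0.42 on the log2 scale, with adjusted p of 0.000118 and 2.23e-05. Day 10 spread over a 12.8-fold range, with the males d10_m_453 and d10_m_333 and the female d10_f_454 at the top. Without 5 embryos that were extreme for several members (d08_m_121, d08_m_136, d10_f_454, d10_m_453 and d12_f_245, chosen after their levels were seen), the first rise was 1.40 with an adjusted p of 0.00230 and was not called.

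ANXA8 (chr14:88319209-88340716, gene 100155930), an annexin of epithelia and of late endosomes, was at 25.3 to 106 CPM on Day 8 with a median of 38.4. It was at 103 to 203 CPM on Day 10 with a median of 150, and at 190 to 1077 CPM on Day 12 with a median of 523. The embryos of Days 8 and 10 overlapped through d08_m_121 alone, the highest of Day 8. The rises were 1.75 ± 0.25 and 1.84 ± 0.25 on the log2 scale, with adjusted p of 7.36e-07 and 1.67e-07. From Day 8 to Day 12 ANXA8 rose 12.0-fold, the second largest rise of the 7 annexins after ANXA1 with 20.4-fold.

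ANXA5 (chr8:102387833-102420868, gene 100521982), which coats phosphatidylserine on the outside of cells and shields trophoblast from clotting, had the only called fall of the members. Its embryos lay between 386 and 534 CPM on Day 8 with a median of 403, between 743 and 1260 CPM on Day 10 with a median of 920, and between 276 and 536 CPM on Day 12 with a median of 392. No Day 10 embryo overlapped an embryo of either other day. ANXA5 rose by 1.20 ± 0.11 on the log2 scale to Day 10, with an adjusted p of 3.93e-10, and fell by 1.28 ± 0.11 to Day 12, with an adjusted p of 3.7e-11. Between Days 8 and 12 the log2 fold change was -0.08 ± 0.11 with an adjusted p of 0.54. Of the 6 trophectoderm markers, KRT8, KRT18 and CDX2 had their highest mean on Day 10 as well, while GATA2, GATA3 and TFAP2C had their lowest mean there.

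ANXA7 (chr14:76205238-76234646, gene 100156638), or synexin, which fuses secretory membranes, had the smallest coefficient of variation of the members on Days 10 and 12, but not on Day 8, where that of ANXA5 was smallest (10.4% against 16.6%). Its levels were 44.3 to 75.6 CPM on Day 8, 91.6 to 117 CPM on Day 10 and 104 to 158 CPM on Day 12, and the coefficients of variation on Days 10 and 12 were 8.22% and 11.2%. All 10 embryos of Day 10 exceeded all of Day 8. The log2 changes of 0.76 ± 0.09 and 0.50 ± 0.09 had adjusted p of 1.36e-08 and 8.02e-06 but stayed under the fold threshold, and the sum of both, 1.26 ± 0.09 from Day 8 to Day 12, was called.

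ANXA4 (chr3:72623311-72654591, gene 100312960), an annexin of secretory epithelia that lowers membrane fluidity, was measured at 46.0 to 81.8 CPM (median 60.6) on Day 8, 75.0 to 136 CPM (median 98.2) on Day 10 and 59.2 to 210 CPM (median 137) on Day 12. The Day 12 embryos split widely, and the females d12_f_245 and d12_f_271 were within the range of Day 8. ANXA4 was called between Days 8 and 12, with a log2 fold change of 1.17 ± 0.16 and an adjusted p of 1.82e-07. The changes of 0.76 ± 0.16 to Day 10 and 0.41 ± 0.16 from Day 10 were not called.

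ANXA3 (chr8:73970314-73993039, gene 102166512), an annexin of neutrophil granules and of some epithelia, had medians of 1.83, 0.835 and 2.69 CPM on Days 8, 10 and 12. The log2 change to Day 10 was -1.04 ± 0.38 with an adjusted p of 0.022, which was not a call. From Day 10 to Day 12 it rose by 1.58 ± 0.39 with an adjusted p of 0.000801. That call rests on little, since it was kept in 18 of 30 fits that left out 1 embryo each. The highest level of Day 12, 10.4 CPM, was in d12_f_245, and the other embryos of that day reached 4.92 CPM at most.

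All 3 S100 members lie on chromosome 4, S100A6 at chr4:96098264-96099686 (gene 733608), S100A11 at chr4:97233833-97239081 (gene 445534) and S100A10 at chr4:97261752-97272517 (gene 100515138). S100A11 and S100A10 are neighbours with 22671 bases between them. S100A6 (calcyclin), which is known from proliferating cells and binds CACYBP, had the largest change of the members. Its Day 8 embryos lay between 0.572 and 4.41 CPM with a median of 1.30, those of Day 10 between 4.18 and 21.9 CPM with a median of 11.12, and those of Day 12 between 48.3 and 482 CPM with a median of 121. The Day 12 embryos were above all others, and among them the females d12_f_271 and d12_f_289 were highest. The rises were 2.56 ± 0.45 and 4.06 ± 0.45 on the log2 scale, with adjusted p of 1.87e-05 and 3.21e-09, and the rise from Day 8 to Day 12 was 98.4-fold.

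S100A10, the S100 protein that stays in its active form without calcium, was at 25.0 to 54.4 CPM in the Day 8 embryos (median 32.7). The Day 10 embryos had 67.3 to 183 CPM (median 97.5) and the Day 12 embryos 141 to 688 CPM (median 307). No embryo of Day 10 overlapped Day 8, and 8 embryos of Day 12 exceeded all of Day 10. S100A10 rose by 1.62 ± 0.23 and by 1.55 ± 0.23 on the log2 scale, with adjusted p of 5.70e-07 and 6.06e-07.

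S100A11 (calgizzarin), a partner of ANXA1 and ANXA2 in membrane resealing, was at 69.6 to 143 CPM on Day 8, at 242 to 890 CPM on Day 10 and at 293 to 658 CPM on Day 12. The medians were 87.7, 438 and 339 CPM. Every embryo of Days 10 and 12 exceeded every embryo of Day 8. The rise to Day 10 was 2.44 ± 0.21 on the log2 scale with an adjusted p of 6.02e-11, and the change from Day 10 to Day 12 was -0.40 ± 0.20 with an adjusted p of 0.088. The neighbours S100A10 and S100A11 thus did not keep one ratio of counts. Within an embryo the ratio of S100A10 to S100A11 had medians of 0.363, 0.212 and 0.822 on Days 8, 10 and 12, and the ranges of Days 10 and 12 did not overlap.

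**Figure D2:**
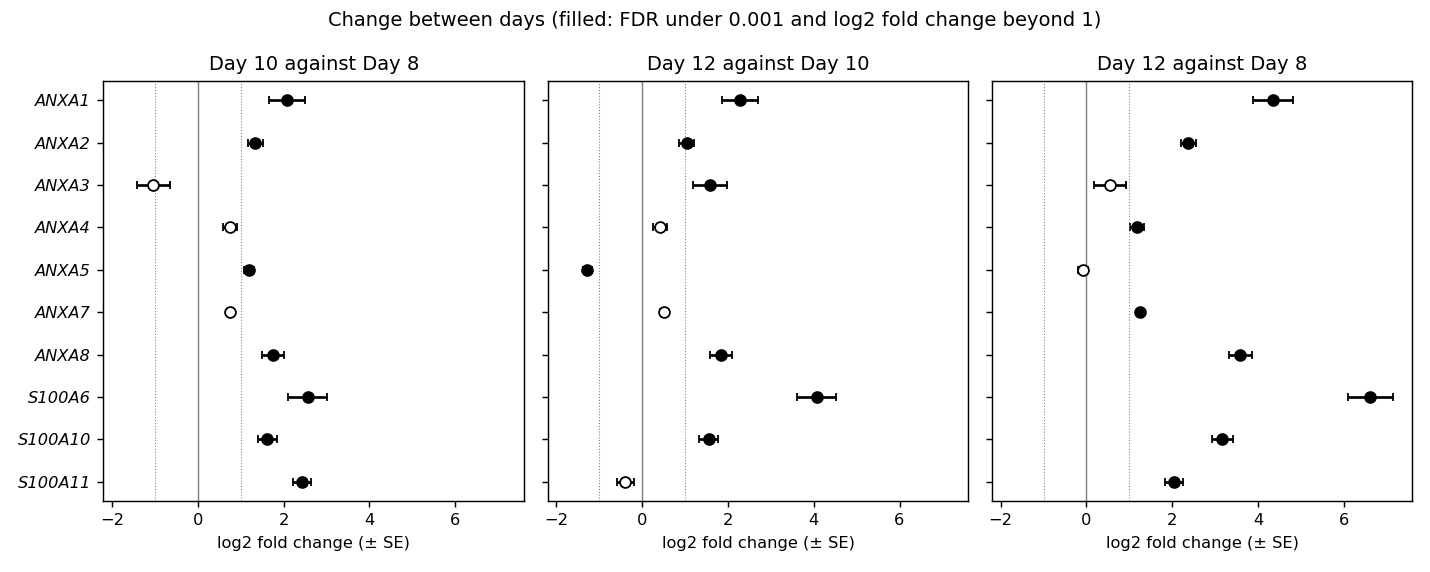
Log2 fold change of each member with its SE (horizontal bar) in the comparisons between days, filled where the FDR was under 0.001 and the log2 fold change beyond 1 (dotted lines). S100A6 rose by 6.62 from Day 8 to Day 12, and ANXA5 is the only filled point left of 0, at -1.28 between Days 10 and 12.

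Counted together, 7 of 10 members were called higher on Day 10 than on Day 8 and none lower, against 9.88% of all genes called higher and 4.2% called lower. Their median log2 fold change was 1.48, and that of all genes was 0.03. Between Days 10 and 12, 6 of 10 members were called higher, against 14.9% of all genes, and 1 was called lower, against 8.39%. The median of the members was 1.29 and that of all genes 0.04. From Day 8 to Day 12, 8 of 10 were called higher, against 22% of all genes, and none lower, against 10.4%, with medians of 2.21 for the members and 0.09 for all genes. Each pair of these comparisons shares the embryos of a day, so the counts are not independent of each other. The members were also chosen with earlier results of these data known, so their shares beside those of all genes are not a test. When the null was set at a log2 change of 1 rather than 0, S100A11 alone passed on Day 10 and S100A6 alone between Days 10 and 12.

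The embryos of the 2 days did not overlap for 4 of 10 members between Days 8 and 10, against 22% of all genes, for 2 of 10 between Days 10 and 12, against 16.6%, and for 7 of 10 between Days 8 and 12, against 31.7%. Summed CPM of the 7 annexins had medians of 803, 1896 and 3000 on Days 8, 10 and 12. That of the 3 S100 members had medians of 126, 537 and 751.

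Single embryos were high or low for many members at once. On Day 10, d10_m_453 was among the 2 highest embryos for 8 of 10 members and d10_f_454 for 7. The female d10_f_433 was among the 2 lowest for 6. Over all genes, d10_m_453 and d10_f_454 also lay farthest from the others of Day 10, at mean distances of 96.9 and 93.6 in log2 CPM. The other Day 10 embryos were at 73.9 to 88.0. How often these embryos ranked highest or lowest over all genes was not counted. The Day 12 male d12_m_276 had the lowest level of 6 members, ANXA1, ANXA2, ANXA5, ANXA8, S100A6 and S100A10. On Day 8, d08_m_136 was among the 2 highest for 7 members, and d08_m_121 had the highest ANXA7, ANXA8 and S100A10.

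Whether transcripts of binding partners varied together was examined within each day, over 10 embryos that share a day but differ in sex and gilt. ANXA2 and S100A10 had a Pearson r of 0.96 and a Spearman rho of 0.96 on Day 10, with adjusted permutation p of 0.00021 and 0.00018 over 6 relations (unadjusted 7.0e-05 and 3.0e-05). Day 12 gave r = 0.91 and rho = 0.89, with adjusted permutation p of 0.00021 and 0.0034 (unadjusted 5.0e-05 and 0.0011). Without the 2 embryos farthest from the median of ANXA2, r was 0.94 on Day 10 and 0.86 on Day 12. On Day 8, r was 0.71 and rho 0.55, with adjusted permutation p of 0.034 and 0.16 (unadjusted 0.022 and 0.10), and r was 0.19 without d08_m_136 and d08_m_121, so that relation rests on these embryos. As background, 0.351% of all other genes on Day 10, 0.244% on Day 12 and 2.33% on Day 8 had an r with ANXA2 at least as high as that of S100A10.

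**Figure D3:**
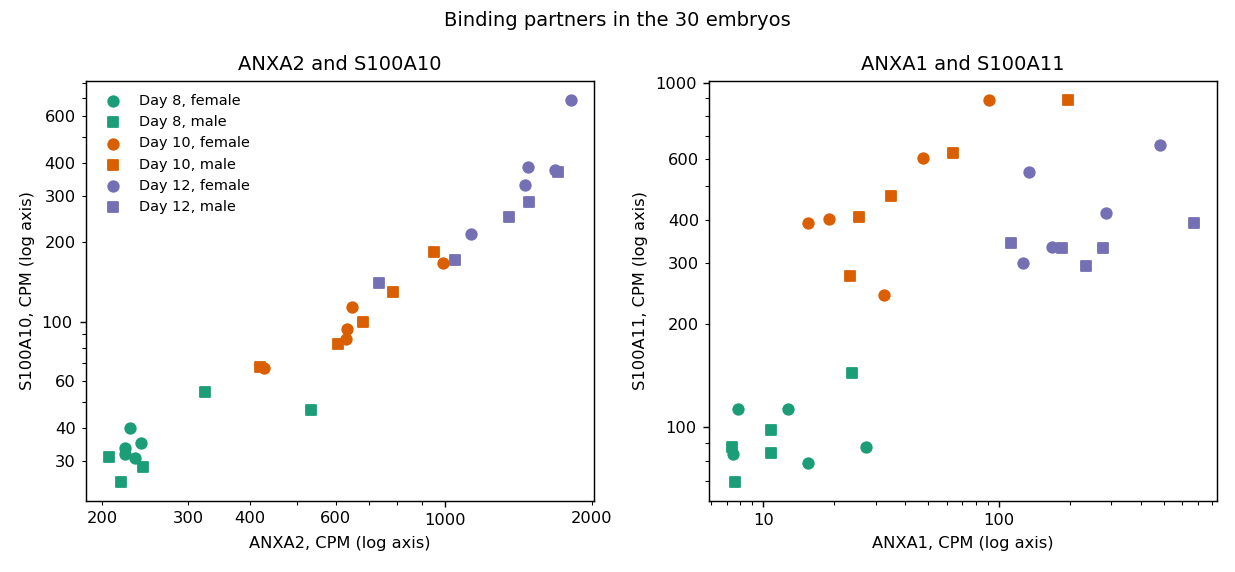
CPM of S100A10 against ANXA2 (left) and of S100A11 against ANXA1 (right) in the 30 embryos, both axes logarithmic, coloured by day, with circles for female and squares for male embryos. ANXA2 and S100A10 lie close to one line over Days 10 and 12, where r was 0.96 and 0.91 within the day, while in the other pair ANXA1 rises from Day 10 to Day 12 and S100A11 does not.

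For ANXA1 and S100A11, r was 0.38, 0.80 and 0.36 and rho 0.27, 0.83 and 0.33 on Days 8, 10 and 12. The adjusted permutation p for r were 0.30, 0.0089 and 0.30 (unadjusted 0.28, 0.0044 and 0.30), and those for rho were 0.45, 0.0094 and 0.42 (unadjusted 0.45, 0.0047 and 0.35). On Day 10 r went down to 0.56 without d10_m_453 and d10_f_454, and 5.34% of all other genes had an r with ANXA1 at least as high. The Day 10 relation of this pair therefore leans on the embryos that were high for most members.

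Ratios of counts within an embryo do not depend on the scaling between libraries, and since transcript lengths cancel, their change between days can be read although their size cannot. The ratio of S100A10 to ANXA2 had medians of 0.145, 0.159 and 0.204 on Days 8, 10 and 12, with 0.380 in d12_f_245 and 0.164 to 0.261 in the other Day 12 embryos. The ratio of ANXA2 to ANXA5 stayed between 0.486 and 0.998 on Day 8 and between 0.553 and 0.893 on Day 10, and was between 2.66 and 5.47 on Day 12. The ranges of Days 10 and 12 were far apart, which is the joint result of the rise of ANXA2 and the fall of ANXA5. S100A11 over ANXA1 had medians of 9.02, 12.2 and 1.62.

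**Figure D4:**
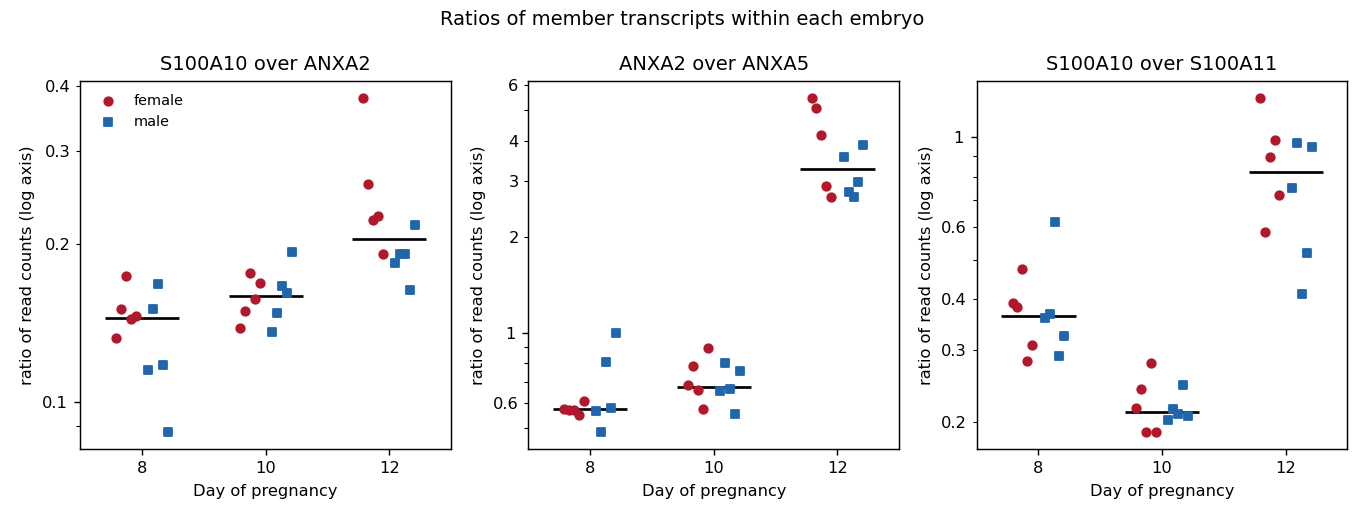
Ratios of counts of S100A10 to ANXA2, ANXA2 to ANXA5 and S100A10 to S100A11 within each embryo (log axes) by day of pregnancy, with circles for female and squares for male embryos and a line at the median of a day. ANXA2 over ANXA5 lay at 2.66 or more in all Day 12 embryos and at 0.998 or less in all earlier ones.

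Genes with the most similar course were found by the root mean square (RMS) difference in mean-centred log2 CPM over the 30 embryos, among 13102 other genes. Much of this likeness is the change between days that the genes share. For ANXA2 the nearest were CD151 and PLPP2, at RMS differences of 0.36 and 0.37, and S100A10 followed at rank 3 with 0.38. For S100A10 they were RTKN (0.32) and ANXA2 (0.38), and for ANXA8 they were S100A10 (0.47) and MXRA7 (0.47). ANXA5 was nearest to TSTD2 and FABP3 (0.22 and 0.24), ANXA7 to ARID3A and PRDX2 (0.23 for both), ANXA4 to LEPROT and DOCK9 (0.24 and 0.25) and S100A11 to FBXO44 and DYRK1B (0.32 and 0.37). The more variable ANXA1 was nearest to SELENOM and SGCE (0.78 and 0.79), ANXA3 to SIPA1 and IER5 (0.65 and 0.69) and S100A6 to S100A1 and MZB1 (0.81 and 0.96). S100A1 overlaps S100A13 in the annotation, so reads of these genes could have been split between them.

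Among 4 further annexins in the table, ANXA9 was called higher and ANXA10 lower on Day 10, ANXA6 was called lower on Day 12 than on Day 10, and ANXA11 was not called. ANXA10, an annexin of the gastric epithelium, was at 2.25 ± 1.30 (SD, n = 10) CPM on Day 8 and at 0.149 ± 0.136 CPM on Day 10, with a log2 fold change of -3.86 ± 0.56 and an adjusted p of 9.37e-07. A floor of 3 counts was 0.108 to 0.170 CPM in the Day 10 libraries, so the size of this fall is uncertain. ANXA9, an atypical annexin that has lost calcium binding, was at 2.72 ± 1.92, 6.81 ± 2.64 and 11.2 ± 4.84 CPM. Its rise to Day 10 was 1.31 ± 0.29 with an adjusted p of 0.000362. That call was lost without d10_m_333. It was also lost without the 5 embryos left out for ANXA1, with a log2 fold change of 1.09 and an edgeR adjusted p of 0.00795. The median log2 fold changes of these 4 annexins were 0.19, 0.26 and -0.52 in the comparisons of Day 10 with 8, Day 12 with 10 and Day 12 with 8.

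The S100 list held 13 other genes (12 S100 genes and S100PBP). Of these, 3 were called higher on Day 10 (S100A1, S100A2 and S100G) and 1 lower (S100Z). The days overlapped for S100A2 and S100G, where 7 and 6 embryos of Day 10 lay above all of Day 8. Between Days 10 and 12, 6 were called higher and none lower, while over the whole interval from Day 8 to Day 12 there were 9 called higher and 1, S100Z, lower. The median log2 fold change was 2.30 on Day 10 over Day 8, or 0.33 with genes at 0 in every Day 8 embryo set to their bound or to no change. It was 2.30 for Day 12 over Day 10 and 3.91 for Day 12 over Day 8. S100A14 and S100A16 were not called in any comparison between days.

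**Figure D5:**
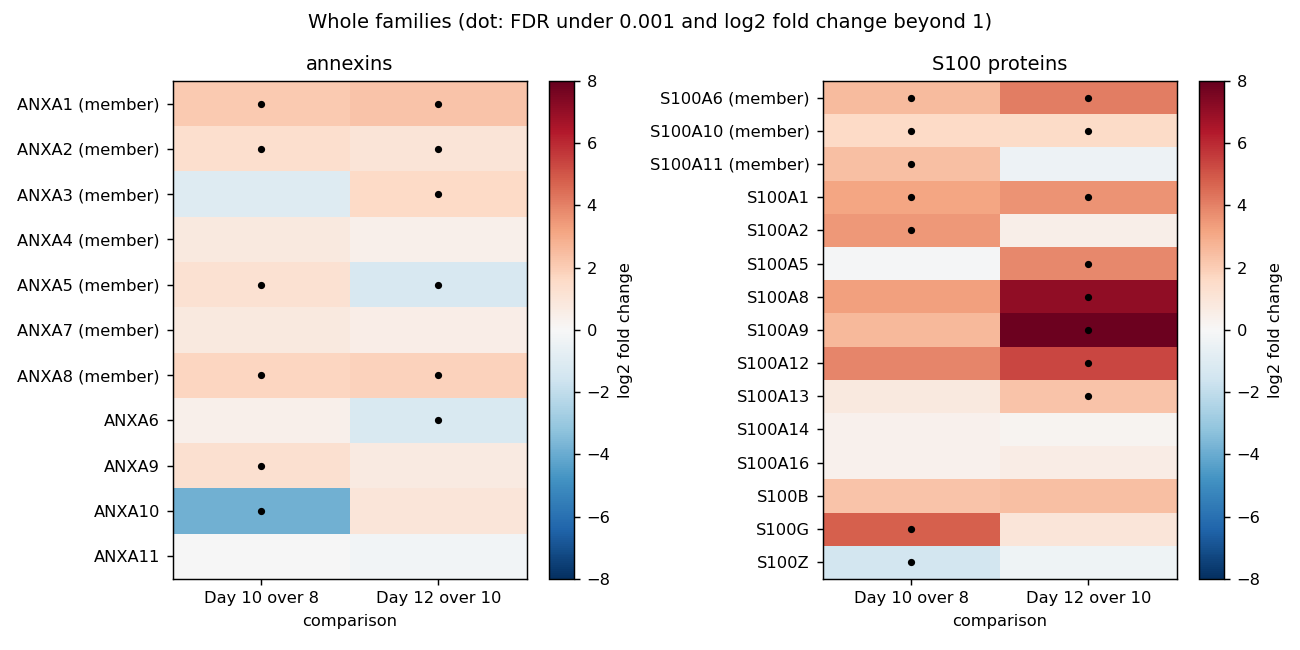
Log2 fold change of every annexin (left) and S100 gene (right) in the table for Day 10 over Day 8 and Day 12 over Day 10, as colour, with a dot where the FDR was under 0.001 and the log2 fold change beyond 1. Of 15 S100 genes, 8 were called higher on Day 12 than on Day 10 and none lower, and of 11 annexins 4 were called higher and 2, ANXA5 and ANXA6, lower.

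Between Days 10 and 12, the largest fitted changes of the S100 list were in S100A9, S100A8 and S100A12, the calgranulins, which are secreted by neutrophils and by stressed epithelia. S100A8 and S100A12 had no count in any Day 8 embryo, and S100A9 was at 0.0823 CPM or less. On Day 12, S100A9 ran from 4.12 to 247 CPM, S100A8 from 0.309 to 66.3 CPM and S100A12 from 0.235 to 25.0 CPM, and the highest value of each was in d12_f_245. The other 9 embryos reached 64.7, 3.68 and 3.84 CPM. S100A8 was at least 55.7-fold higher on Day 12 than on Day 8 by the mean, taken against a floor of 3 counts per library, but at least 4.91-fold by the median. The calls from Day 10 to Day 12 held without d12_f_245, with edgeR adjusted p of 6.34e-11, 1.82e-05 and 0.000168 for S100A9, S100A8 and S100A12. Their log2 fold changes were 6.83, 4.60 and 3.90 without that embryo and 7.83, 7.12 and 5.37 with it. The Day 10 medians of these genes were 0.0527, 0 and 0 CPM. A floor of 3 counts was 0.108 to 0.170 CPM in the Day 10 libraries, so the sizes of these rises are uncertain. Of 7 leukocyte markers, ITGAM, ITGB2 and LYZ were in the table, and PTPRC, CSF3R, CD14 and CD68 were not in it. The summed CPM of the 3 measured ones was 36.4 to 50.8 on Day 8, 30.8 to 41.2 on Day 10 and 29.7 to 161 on Day 12. ITGAM made up most of that sum except in d12_m_276, the highest of Day 12, where ITGB2 was at 87.4 CPM and ITGAM at 72.5 CPM. ITGB2 and LYZ were called higher on Day 12 than on Day 10. ITGB2 went from 0.173 ± 0.159 to 18.6 ± 25.1 CPM (SD, n = 10) with an adjusted p of 1.54e-10 and no overlap of the days, and LYZ from 0.491 ± 0.240 to 2.77 ± 4.15 CPM with an adjusted p of 0.000339. In d12_f_245, where the calgranulins were highest, ITGB2 was at 4.77 CPM and LYZ at 0.145 CPM. The Day 12 medians were 12.6 and 1.05 CPM. A floor of 3 counts was 0.434 CPM in d12_f_245, the smallest library, so its level of LYZ is uncertain. The part of leukocytes in the calgranulin rise was not tested.

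Of 15 measured proteins that bind annexins or the S100 members, 4 were called higher on Day 10 (GRN, LGALS3, MYOF and TRPV6) and 1 lower (DLC1), and 3 were called higher on Day 12 than on Day 10 (TRPV5, TRPV6 and DLC1). The median log2 fold changes of the list were 0.20, -0.09 and 0.17. TRPV6, an epithelial calcium channel that the ANXA2 complex carries to the membrane, was at 0.400 ± 0.268 CPM on Day 8, 3.07 ± 5.33 CPM on Day 10 and 40.5 ± 18.7 CPM on Day 12. Its rise to Day 10 was lost without the same 5 embryos that were left out for ANXA1 (log2 fold change of 0.74 against 2.88), and the rise of 3.70 ± 0.58 from Day 10 to Day 12 had an adjusted p of 2.45e-06. GRN, the growth factor precursor progranulin, went from 75.9 ± 10.9 to 926 ± 328 CPM on Day 10 and was at 859 ± 384 CPM on Day 12.

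In plasminogen activation, 8 of 9 listed genes were measured. On Day 10, PLAU (urokinase), SERPINB2 and SERPINF2 were called higher and SERPINE2 lower, and between Days 10 and 12 PLAT (the tissue activator), PLAUR (the urokinase receptor) and SERPINF2 were called higher and PLGRKT, a plasminogen receptor, lower. The median log2 fold changes of the list were 0.07, 0.25 and 2.41. SERPINB2, an inhibitor of urokinase, had no count on Day 8, and its mean of 1.76 CPM on Day 10 came mostly from d10_m_453 and d10_f_454, with 13.4 and 3.70 CPM. That call was kept in 18 of 30 fits that left out 1 embryo each.

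Of 13 measured genes of membrane repair and scrambling, 2 were called higher (CAV1 and CAVIN1) and 1 lower (SYT7) on Day 10, with medians of the list at 0.18, -0.23 and 0.23. SYT7, the calcium sensor of lysosome exocytosis, fell from 2.47 ± 0.80 CPM on Day 8 to 0.667 ± 0.315 and 0.103 ± 0.101 CPM. CAV1, the coat protein of caveolae, reached at most 0.137 CPM on Day 8, lay between 0.222 and 2.17 CPM on Day 10 and between 0 and 2.32 CPM on Day 12. Among 5 receptors of ANXA1 and of S100 proteins, TLR4 was in the table, at 0.0499 ± 0.0859, 0.266 ± 0.281 and 1.58 ± 0.76 CPM, and it was called higher on Day 12 than on Day 10 with an adjusted p of 0.000198. FPR1, FPR2, AGER and CD36 were not in the table.

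Female and male embryos of a day were compared to see whether any member differs by sex. By the study's text embryos of both sexes were taken from each sow, but which of them shared a sow is not in the labels, so the sexes were compared unpaired. By edgeR's quasi-likelihood test, 0 of 10 members were called on Day 8, Day 10 or Day 12, against 0.658%, 0.223% and 0.123% of all genes, and the robust GLM and DESeq2 gave 0 as well. At an unadjusted p under 0.05 there were 2 members on Day 8 (ANXA8 and S100A6, both lower in females), 0 on Day 10 and 1 on Day 12 (S100A10, higher in females), where 4.59%, 2.36% and 22.7% of all genes passed. The male d08_m_121 stood far above the other Day 8 embryos for ANXA8, as did the female d12_f_245 on Day 12 for S100A10. The sexes overlapped for every member on every day. The log2 differences, female minus male, lay between -1.12 (S100A6) and 0.22 (ANXA1) on Day 8, between -0.76 (ANXA1) and 0.12 (ANXA4) on Day 10 and between -0.41 (ANXA4) and 0.94 (ANXA3) on Day 12. With 5 embryos per sex and the spread seen here, differences of this size were not detectable for the more variable members, where the SE reached 0.67.

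The difference between sexes was also compared between days in a fit of 6 groups. No member was called in the 3 comparisons by edgeR, and 0% of all genes were. By unadjusted p, 100, 2473 and 2863 of 13103 genes were under 0.05 for Day 10 against 8, Day 12 against 10 and Day 12 against 8, and among the members only S100A6 in the last of these, with a log2 difference of 1.999 ± 0.86 and an adjusted p of 0.18.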

How the data were processed

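RNA of 30 single embryos was sequenced from stranded mRNA libraries. The authors trimmed single-end reads, aligned these to the Sscrofa11.1 assembly (NCBI annotation) and dropped genes below a cutoff in CPM. The aligner, counting tool and strand setting are not given in the sources used here. The 4 deposited tables hold raw read counts per gene, without normalization: one of 13103 genes over all embryos, and one per day with 11405 (Day 8), 11675 (Day 10) or 12220 genes (Day 12). Every identifier matched the RefSeq gene table of that assembly, and no member overlaps another annotated gene.

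R 4.3.3 with edgeR 4.0.16 (quasi-likelihood F test, robust dispersion, TMM factors, Benjamini-Hochberg adjustment) was fitted over whole tables, days in 1 fit of 3 groups and sexes in the table of their day, where a call needed an FDR under 0.05. Alternatives used DESeq2 1.42.0 and other settings. Log2 CPM used a prior count of 2, the SE is the log2 fold change over the square root of F, and correlations used two-sided permutation tests with 100000 resamples (scipy 1.17.1). The floor of 3 counts was 0.434 CPM in the smallest library and covers counting error only. The edgeR quasi-likelihood test was checked on simulated data, for Day 12 against Day 10 and for female against male on each day. The simulated embryos were independent and their changes larger than many of those seen here. That check therefore does not cover littermates or small changes.

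The members, gene lists and tests were chosen with earlier results of these data known. Named genes are all members, the 2 genes nearest to each, and up to 12 called list genes with the largest changes. One list gene is not reported here and was taken out of its list and counts after the results were seen.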

Additional observations from a re-analysis of the deposited data

Results flagged for a closer look

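In 30 groups of 10 embryos (10 members on 3 days), 7 had an embryo far from the other 9 by Dixon's test. Its rate of about 1 flag in 20 groups holds for independent groups of normally distributed values. The values here were CPM without a log transform and the groups share embryos, so that rate cannot show whether 7 flags are many. On Day 8, ANXA2 and ANXA5 were at 533 and 534 CPM in the male d08_m_136, against 324 and 424 CPM at most in the others, and ANXA8 was at 106 CPM in the male d08_m_121, against 57.5 CPM at most. On Day 10, ANXA1 was at 197 CPM in the male d10_m_453, against 91.1 CPM at most. On Day 12, the female d12_f_245, the smallest library, had S100A10 at 688 CPM against 385 CPM at most, ANXA3 at 10.4 CPM against 4.92 CPM at most, and ANXA7 at 104 CPM against 134 CPM at least.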

How the results depend on the processing

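Between Days 8 and 10 the 7 called members became 3 in male embryos only and 1 when tested against a change of 1 on the log2 scale, and the 7 between Days 10 and 12 became 2 and 1 (fewer embryos, or a stricter hypothesis, by construction). Leaving out 1 embryo at a time gave 7 to 7, 5 to 7 and 8 to 8 called members for Day 10 against 8, Day 12 against 10 and Day 12 against 8, and 0 to 0 between the sexes on each day. No member changed direction in any comparison between days under any alternative run. Library size alone moved the median log2 fold change of all genes to -0.15, 0.24 and 0.10 and left the counts of called members within 1.5 times, as did RLE factors, the robust GLM, DESeq2, a mean of at least 1 CPM, sex as a term, only the 2 days compared, female embryos only and an FDR under 0.05 with no minimum fold. Mean ANXA7 on Day 10 was 91.7 CPM with library size alone against 100.2 CPM, more than the spread of that day. Leaving out 5 embryos with extreme levels, a choice made after the data were seen, gave 6, 6 and 8 called members. Correlations kept their side of 0.05 with library size alone and with a prior count of 0.5. No paired analysis was possible because the labels do not say which female and male embryos came from the same sow. Depth limits ANXA3, most on Day 10 with a median of 0.835 CPM, and S100A6 on Day 8.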
